A study of Homo sapiens with 6 samples.

Results

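The cancer-testis antigen families MAGEA, MAGEB, MAGEC, PAGE, GAGE, XAGE, SPANX and SSX were examined on 6 expression arrays of a breast cancer cell line. Members were taken by gene symbol alone, as every array probe whose symbol begins with one of these family names followed by a number or letter. Of 24460 gene probes, 43 met this rule, and they named 41 of the 19770 gene symbols on the array. All 43 probes were matched to RefSeq by Entrez identifier, and all 43 belong to genes on chromosome X. RefSeq now lists MAGEA5 as MAGEA5P and SSX6 as SSX6P, both transcribed pseudogenes, and XAGE1E as XAGE1B. Symbols are given here as the array files spell them.

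Cancer-testis genes are transcribed in male germ cells, some also in placenta, and are silent in most other adult tissues, largely through DNA methylation of their promoters. Many tumours transcribe some of them again, and peptides of their proteins can be recognised by T cells. The MAGEA, MAGEB and MAGEC proteins (type I MAGE) bind RING ubiquitin ligases and steer their choice of substrate. SSX proteins are transcriptional repressors, SPANX proteins lie at the nuclear envelope of spermatids, and GAGE, PAGE and XAGE proteins are small relatives of one another with little fixed structure. Within each family the genes arose by duplication, so that a probe for one member may also bind the RNA of another. The probe sequences were not among the files used here, and cross-hybridisation was not tested.

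The study asked how raised maspin, a serpin family protein encoded by SERPINB5, changes gene expression in MDA-MB-231 cells, which derive from an invasive breast cancer that lacks the hormone receptors and HER2 (triple-negative). In MB-231-maspin a lentiviral vector gives maspin joined to the green fluorescent protein ZsGreen by a self-cleaving P2A peptide, and the vector of MB-231-control gives ZsGreen without maspin. Each line was made by pooling the blasticidin-resistant clones. Total RNA was labelled with Cy5 and hybridised in 1 colour, with 3 arrays labelled MB-231-maspin and 3 labelled MB-231-control, called the arrays labelled maspin and labelled control in what follows. No source says that the 3 arrays of either line stem from separate cultures, so the spread behind each p-value is that between arrays and may be technical only.

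Intensities had been reduced by the background of the array and scaled to an array median of 25, and probes close to the background were left blank. A value was present for 89.4% to 91.0% of gene probes on the arrays labelled maspin and for 87.1% to 91.3% on those labelled control. Of the negative control spots the brightest read 3.27, 2.58 and 3.44 on replicates 1, 2 and 3 labelled maspin, against 3.76, 9.35 and 3.22 on those labelled control, so that control replicate 2 stood apart. The SERPINB5 probe read 4.20, 2.79 and 4.40 on the arrays labelled maspin and 5.10, 5.61 and 4.11 on those labelled control. It was therefore not brighter under the maspin label, and it is not known whether this probe detects the vector's transcript, so each direction below rests on the array labels. The study assessed maspin RNA and protein in the lines by RT-qPCR and western blot and took MB-231-maspin as the overexpressing line, from measurements not used here. Among markers of the cell line, the brightest probe of VIM, the mesenchymal filament protein, averaged 12202 on the arrays labelled maspin and 12505 on those labelled control. The other VIM probes averaged 155 and 8.99 on the arrays labelled maspin, against 163 and 10.5 on those labelled control. CD44 averaged 342 on the arrays labelled maspin and 356 on those labelled control. All 9 probes of such genes lay above the brightest negative control spot on every array. Of 6 probes for genes held to be low or absent in the line, 3 lay above that spot on every array. ESR1, the estrogen receptor, was blank on all 6 arrays, but CDH1, the epithelial cadherin, averaged 55.2 on the arrays labelled maspin and 55.5 on those labelled control. GATA3, a luminal transcription factor, averaged 27.4 on the arrays labelled maspin and 22.3 on those labelled control. ERBB2, which encodes HER2, averaged 16.7 on the arrays labelled maspin and 16.8 on those labelled control. Of 8 probes for germ cell genes, 1 lay above the brightest negative control spot on every array (TNP2, 12.3 on average on arrays labelled maspin and 13.8 on arrays labelled control), and the germ cell marker DDX4 was blank. Their summed intensity was 22.6 to 26.5 on the arrays labelled maspin and 26.4 to 29.0 on those labelled control.

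Not all of the families' probes gave a readable signal. Of the 43 probes, 33, 32 and 33 had a value on replicates 1, 2 and 3 labelled maspin, against 33, 35 and 32 on those labelled control. A value was present on all 6 arrays for 30 probes and on none for 7, and 18 lay above the brightest negative control spot on all 6. A mean above 10 in either group, the minimum named in the study's methods, was reached by 19 probes, which were tested, and the other 24 were not. Of those 24, 11 had a value on all 6 arrays. The tested probes were 7 of 11 for MAGEA, 2 of 11 for MAGEB, 2 of 4 for MAGEC, 3 of 5 for PAGE, 1 of 4 for SPANX, 2 of 4 for SSX, 2 of 3 for XAGE and 0 of 1 for GAGE. The GAGE1 probe had a value on 1 array, maspin replicate 3, and MAGEB18 on 1, control replicate 2, both under the brightest negative control spot. MAGEB1, MAGEB5, SPANXN1, SPANXN2, SPANXN4 and XAGE5 were blank on all 6 arrays. RefSeq holds 67 protein-coding genes under these family names, of which 38 had a probe here, and PAGE2B, MAGEA6, SPANXA1, SPANXB1, SPANXC and SSX2 are among those without one of their own.

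On the arrays labelled maspin, PAGE5 was higher by 1.71 times and SPANXD was lower at 0.693 times. PAGE2 also passed as higher, but its mean on the arrays labelled control lay under the minimum, so that it was tested only through the arrays on which it was high. None of the other 16 tested probes passed. Each probe's log2 values were compared with limma, maspin minus control, at a Benjamini-Hochberg adjusted p under 0.05 over all 14903 probes tested. Over all probes, 76 were higher (0.510%) and 50 lower (0.336%), and of the 19 member probes 2 were higher, PAGE2 among them, and 1 was lower. The median log2 difference was -0.03 over the 19 member probes and 0.03 over all probes. At an unadjusted p under 0.05 in limma, 3 of the 19 member probes were higher, PAGE2 again among them, and 1 was lower. Of all 14903 probes tested, 1413 were higher and 577 lower at that threshold.

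**Figure D1:**
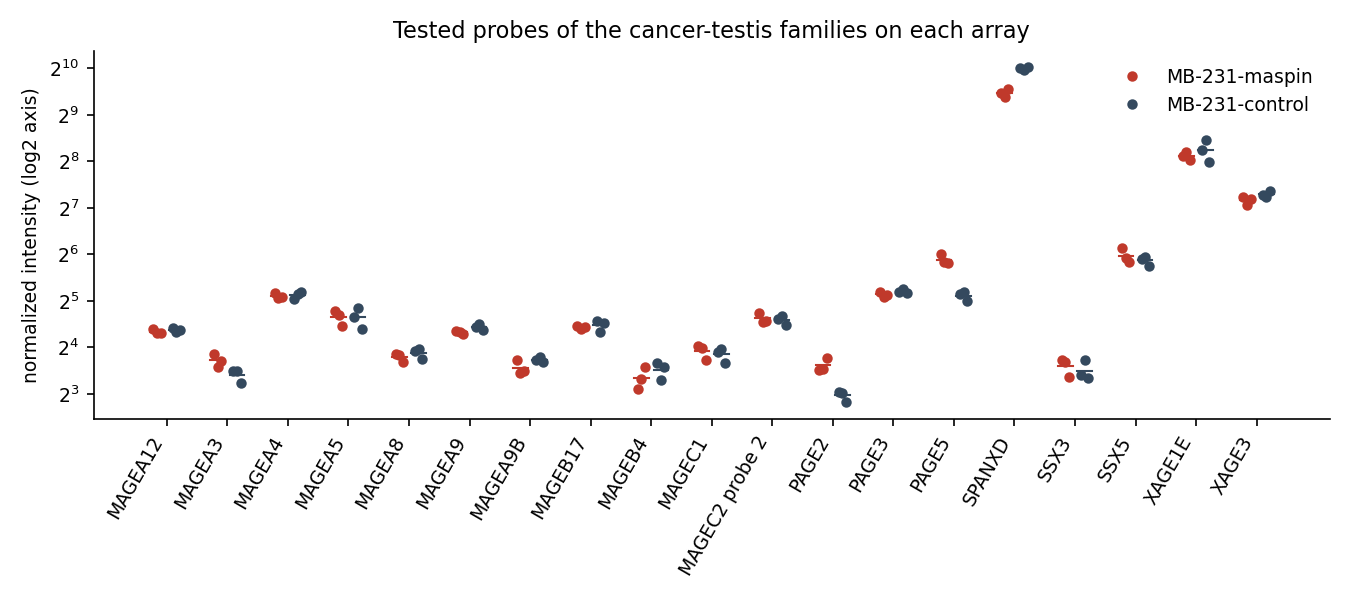
Globally normalized intensity (log2 axis, scaled to an array median of 25) of the 19 tested member probes on each array, with the 3 arrays labelled MB-231-maspin left of the 3 labelled MB-231-control; points are arrays and bars are group means. PAGE5 and PAGE2 lay higher and SPANXD lower on all 3 arrays labelled maspin than on any labelled control.

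PAGE5 (Entrez Gene 90737), a PAGE gene known from testis and placenta, had the smallest p among the members. Its normalized intensity was 64.6, 57.0 and 56.3 on the arrays labelled maspin (59.3 ± 4.62, SD, n = 3), against 35.6, 36.3 and 31.9 on those labelled control (34.6 ± 2.36, SD, n = 3). The groups did not overlap, and every value lay far above the negative control spots. The log2 fold change was 0.78 (standard error, SE, 0.09, 95% interval 0.57 to 0.99, adjusted p = 0.00910 from limma with Benjamini-Hochberg adjustment). In limma, the call was lost without maspin replicate 1 (adjusted p = 0.0591) or without maspin replicate 2 (adjusted p = 0.0618). The methods' t-test on the same log2 values gave a Benjamini-Hochberg adjusted p of 0.112, against limma's 0.00910. With another background correction (normexp and quantile normalization) the log2 fold change was 0.47 (adjusted p = 0.00275 from limma). This setting adds an offset of 50 to each intensity before the log2, which makes the fold changes of dim probes smaller.

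PAGE2 (Entrez Gene 203569) belongs to the same family. Its intensity was 11.5, 11.7 and 13.8 on the arrays labelled maspin (12.3 ± 1.27, SD, n = 3), against 8.24, 8.12 and 7.12 on those labelled control (7.83 ± 0.617, SD, n = 3). The groups did not overlap, but the control mean lay under the minimum of 10, so that the probe was tested only through the arrays on which it was high. On control replicate 2 it also lay under the brightest negative control spot. The log2 fold change was 0.65 (SE 0.10, 95% interval 0.42 to 0.89, adjusted p = 0.0338 from limma). This call was lost in 11 of 17 alternatives, among them limma without maspin replicate 1, 2 or 3 (adjusted p = 0.106, 0.154 and 0.153) and without control replicate 1 or 2 (adjusted p = 0.117 and 0.0545). With normexp and quantile normalization the log2 fold change was 0.18 (adjusted p = 0.0872), and with log2(value + 10) it was 0.32 (adjusted p = 0.0908). Both settings add a constant before the log2, which makes the fold change of a dim probe smaller.

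The remaining PAGE probes did not share these values. PAGE3 read 36.6, 34.1 and 35.1 on the arrays labelled maspin and 36.5, 38.3 and 36.3 on those labelled control, with overlapping groups and a log2 fold change of -0.07 (SE 0.07, 95% interval -0.24 to 0.10, adjusted p = 0.718 from limma). PAGE1 and PAGE4, which encodes a disordered protein of prostate and placenta, had values between 1.17 and 1.78 on some arrays and none on others, all under the brightest negative control spots, and were not tested.

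In RefSeq gene order (GRCh38.p14), PAGE2, PAGE5 and PAGE3 lie close together on chromosome X, with 1 gene that has a probe, VCF2, between PAGE2 and PAGE5, and PAGE3 next after PAGE5. VCF2 was not tested, at 6.56 on average on the arrays labelled maspin and 7.13 on those labelled control. The tested neighbours on either side did not pass in limma. APEX2, a DNA repair endonuclease, had a log2 fold change of 0.06 (adjusted p = 0.797), MAGEH1, a type II MAGE gene, of 0.07 (adjusted p = 0.781) and RRAGB, a GTPase of amino acid sensing, of 0.07 (adjusted p = 0.865). Over the 511 tested probes of chromosome X, 6 were higher (1.17%) and 3 lower (0.587%), against 0.510% and 0.336% of all probes, with a median log2 difference of 0.06. Of these 9, 3 were PAGE5, PAGE2 and SPANXD themselves and 6 lay outside the families.

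**Figure D2:**
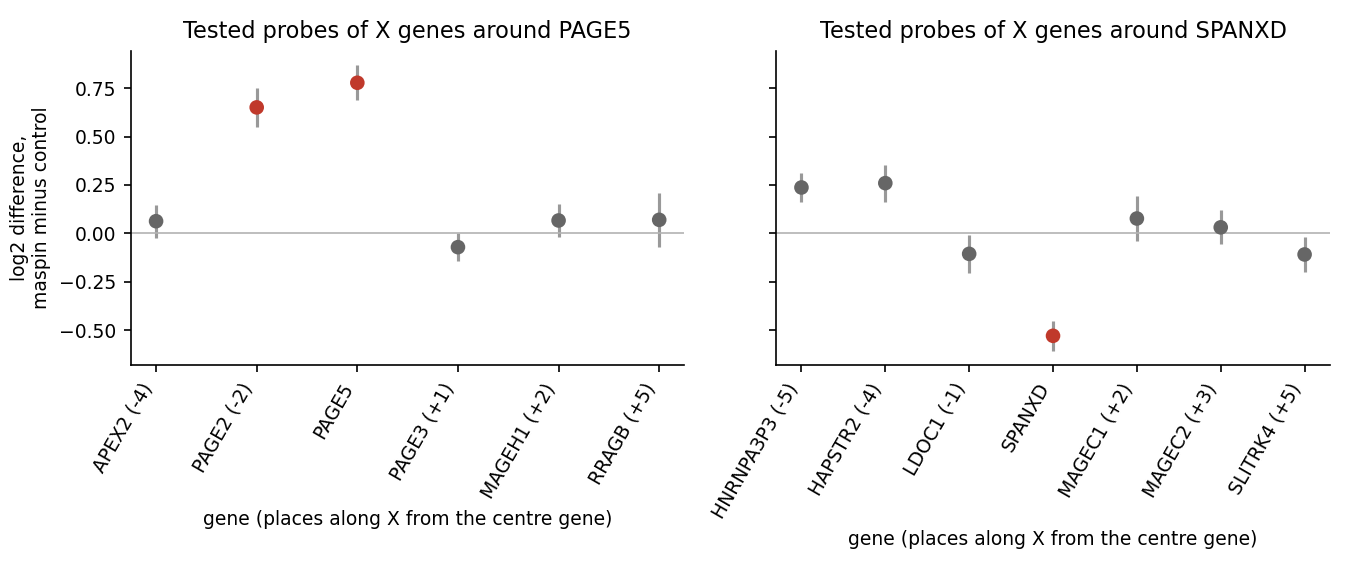
Log2 difference (MB-231-maspin minus MB-231-control) of tested probes of chromosome X genes around PAGE5 and around SPANXD, in RefSeq gene order; points are probes and bars are standard errors. PAGE5 and PAGE2 stand above their tested neighbours, whose log2 differences include -0.07 (PAGE3) and 0.07 (MAGEH1), and SPANXD stands below its own. The windows were placed around genes that had passed, so their standing out adds no result beyond the call. PAGE2 was tested only through the arrays on which it was high.

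The start regions of the genes called, PAGE5, PAGE2 and SPANXD, are shown with that of PAGE3, the tested neighbour of PAGE5 that did not pass. Each run holds 250 bases before to 50 bases after the gene's start, from RefSeq (GRCh38.p14), 5′ to 3′ on the gene's own strand, with CG dinucleotides, the sites of DNA methylation, in capitals. PAGE5 lies at chrX:55220096-55220395 (plus strand), PAGE2 at chrX:55088768-55089067 (plus strand), PAGE3 at chrX:55264867-55265166 (minus strand) and SPANXD at chrX:141698690-141698989 (minus strand).
PAGE5: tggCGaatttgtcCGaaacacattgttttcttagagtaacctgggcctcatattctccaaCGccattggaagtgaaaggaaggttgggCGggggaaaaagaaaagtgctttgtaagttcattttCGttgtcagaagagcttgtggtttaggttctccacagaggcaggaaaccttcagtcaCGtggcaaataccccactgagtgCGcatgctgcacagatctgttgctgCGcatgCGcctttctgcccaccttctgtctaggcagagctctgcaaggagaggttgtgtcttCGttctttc
PAGE2: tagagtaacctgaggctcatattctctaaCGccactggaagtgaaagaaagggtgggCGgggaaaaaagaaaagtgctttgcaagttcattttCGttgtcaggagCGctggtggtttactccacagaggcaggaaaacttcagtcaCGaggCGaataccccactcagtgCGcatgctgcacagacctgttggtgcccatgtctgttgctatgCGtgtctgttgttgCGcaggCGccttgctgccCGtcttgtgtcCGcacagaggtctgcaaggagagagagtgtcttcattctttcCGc
PAGE3: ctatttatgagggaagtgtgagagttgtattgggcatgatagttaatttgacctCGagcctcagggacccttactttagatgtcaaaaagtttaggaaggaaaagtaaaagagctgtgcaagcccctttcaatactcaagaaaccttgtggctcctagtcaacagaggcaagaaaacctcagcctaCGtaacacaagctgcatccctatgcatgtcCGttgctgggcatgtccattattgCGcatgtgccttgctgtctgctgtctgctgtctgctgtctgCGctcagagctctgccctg
SPANXD: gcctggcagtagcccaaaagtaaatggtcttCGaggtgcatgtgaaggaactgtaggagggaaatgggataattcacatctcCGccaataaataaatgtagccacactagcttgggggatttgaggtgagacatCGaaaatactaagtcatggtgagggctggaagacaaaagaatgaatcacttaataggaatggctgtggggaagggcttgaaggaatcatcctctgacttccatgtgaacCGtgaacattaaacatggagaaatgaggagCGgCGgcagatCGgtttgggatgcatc
The PAGE5 window held 10 CG dinucleotides, a number reached by 56.4% of 35116 RefSeq promoter windows of this length, and that of PAGE2 held 13 (reached by 51.7%). PAGE3 held 5 (reached by 70.4%) and SPANXD 7 (reached by 63.2%), and the median over all windows was 14. Of the member genes, 33 had such a window in the table, 46 windows in all, with 1 to 21 CG and a median of 10. In a global alignment the PAGE2 and PAGE5 windows were identical at 78.7% of positions, PAGE2 and PAGE3 at 64.3%, and PAGE5 and PAGE3 at 65.0%. Between members of different families it was 56.3% for PAGE5 with SPANXD, 57.0% for PAGE2 with SPANXD, 58.7% for PAGE5 with MAGEC2 and 59.0% for PAGE2 with MAGEC2. SPANXD was identical at 59.0% with each of its own relatives SPANXA1, SPANXA2, SPANXB1 and SPANXC, no more than PAGE2 with MAGEC2. Whether the windows of these SPANX genes begin at corresponding bases was not tested. PAGE2 and PAGE2B, which has no probe of its own, were identical at 87.0%. Methylation was not measured.

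SPANXD (Entrez Gene 64648), which encodes a protein of the spermatid nucleus, was the 1 member probe that passed with a lower value on the arrays labelled maspin. Its intensity was 711, 668 and 755 on the arrays labelled maspin (711 ± 43.5, SD, n = 3), against 1036, 1003 and 1037 on those labelled control (1026 ± 19.3, SD, n = 3). The groups did not overlap. The log2 fold change was -0.53 (SE 0.08, 95% interval -0.71 to -0.35, adjusted p = 0.0262 from limma). In limma the call was lost without maspin replicate 1, 2 or 3 (adjusted p = 0.128, 0.190 and 0.0868) and without control replicate 1 (adjusted p = 0.169), with the difference between -0.57 and -0.49 whichever array was left out. It was also lost with the methods' t-test on log2 values (adjusted p = 0.0995) and, in limma, without the intensity minimum (adjusted p = 0.0967). SPANXA1, SPANXA2, SPANXB1 and SPANXC had no probe of their own, and whether the SPANXD probe also reads their RNA was not tested.

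Along the chromosome, SPANXD is followed by MAGEC3, MAGEC1 and MAGEC2 among genes with a probe. Before it lie LDOC1, with a log2 fold change of -0.11 (adjusted p = 0.675 from limma), and HAPSTR2, with 0.26 (adjusted p = 0.294). MAGEC1 read 15.2 ± 1.60 on the arrays labelled maspin and 14.4 ± 1.56 on those labelled control (SD, n = 3 each), a log2 fold change of 0.08 (adjusted p = 0.814), and MAGEC3 had a value on 3 of 6 arrays and was not tested.

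MAGEC2, which binds the ligase TRIM28, had 2 probes annotated to the same RefSeq transcript, and they gave different readings. The tested probe read 26.7, 23.5 and 23.9 on the arrays labelled maspin and 24.5, 25.4 and 22.5 on those labelled control. These groups overlapped, with a log2 fold change of 0.03 (SE 0.09, adjusted p = 0.911 from limma). The other probe lay under the minimum of 10, at 9.65, 7.06 and 7.79 on the arrays labelled maspin and 2.56, 3.54 and 1.93 on those labelled control. It lay above the brightest negative control spot on all 3 arrays labelled maspin and under it on all 3 labelled control, and the groups did not overlap. With no control array above that spot, only a bound can be given, for which each control array was set to its brightest negative control spot. On it the probe's mean was at least 1.67-fold higher on the arrays labelled maspin. The bound was worked out for this probe alone and carries no error between arrays. The maspin-labelled values of 7.06 and 7.79 lay under the 9.35 set for control replicate 2. Fitted without the minimum, the probe did not pass (adjusted p = 0.0611 from limma), and in the alternatives the adjusted p was between 0.0172 and 0.295. The bound and this fit were added after the data were seen. Which transcript or paralogue each probe reads was not tested.

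**Figure D3:**
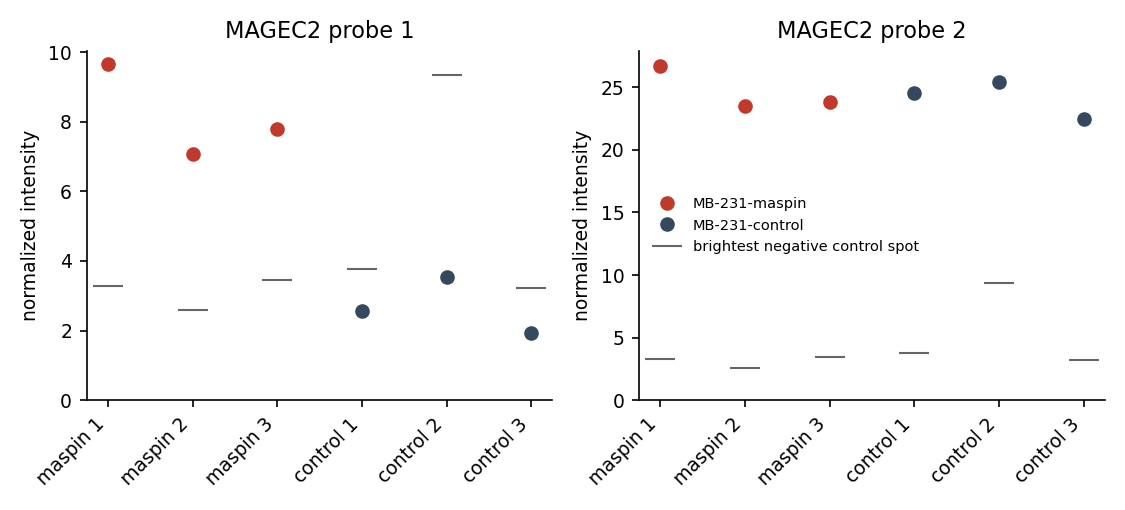
Normalized intensity of the 2 MAGEC2 probes on each array, those labelled MB-231-maspin on the left and those labelled MB-231-control on the right, with the brightest negative control spot of each array as a dash. The tested probe overlaps between the groups, while the dimmer one reads 7.06 to 9.65 on the arrays labelled maspin and 1.93 to 3.54 on those labelled control.

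The MAGEA family did not pass at any of its 7 tested probes, with log2 fold changes from -0.18 to 0.31. MAGEA3, which with TRIM28 directs the AMP-activated kinase subunit PRKAA1 to degradation, read 14.5, 11.9 and 13.1 on the arrays labelled maspin and 11.3, 11.2 and 9.40 on those labelled control. The groups did not overlap, but the log2 fold change of 0.31 (SE 0.11, 95% interval 0.07 to 0.56) did not pass (adjusted p = 0.261 from limma). MAGEA9 read 20.5, 20.0 and 19.5 on the arrays labelled maspin and 21.6, 22.6 and 20.6 on those labelled control, again without overlap, at a log2 fold change of -0.11 (adjusted p = 0.566). The start windows of MAGEA9 and MAGEA9B were identical at every base, as were those of MAGEA3 and MAGEA6. MAGEA9B averaged 11.8 ± 1.26 on the arrays labelled maspin and 13.3 ± 0.434 on those labelled control (SD, n = 3 each), a log2 fold change of -0.18 (adjusted p = 0.450). MAGEA4, a target of engineered T cell receptors, averaged 34.3 ± 1.39 on the arrays labelled maspin and 35.0 ± 2.01 on those labelled control (95% interval of the log2 fold change -0.21 to 0.16). MAGEA8 averaged 13.9 ± 0.907 on the arrays labelled maspin and 14.8 ± 1.19 on those labelled control, a log2 fold change of -0.09. MAGEA12 averaged 20.3 ± 0.797 on the arrays labelled maspin and 20.8 ± 0.497 on those labelled control, a log2 fold change of -0.03. MAGEA5 averaged 25.2 ± 2.82 on the arrays labelled maspin and 25.1 ± 3.93 on those labelled control, a log2 fold change of 0.01 whose sign turned with array weights or normexp. MAGEA1, the first MAGE antigen recognised by T cells, read 1.92, 1.86 and 2.31 on the arrays labelled maspin, was blank on control replicate 1 and read 1.40 and 1.31 on the other arrays labelled control, and was not tested.

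In the MAGEB, SSX and XAGE families none of the 6 tested probes passed either. MAGEB4 averaged 10.2 ± 1.67 on the arrays labelled maspin and 11.5 ± 1.46 on those labelled control (SD, n = 3 each), with the lowest bound among the intervals of the probes that did not pass (log2 fold change -0.18, 95% interval -0.50 to 0.15). MAGEB17 averaged 21.6 ± 0.418 on the arrays labelled maspin and 22.2 ± 1.89 on those labelled control, a log2 fold change of -0.04. XAGE3 read 150, 134 and 147 on the arrays labelled maspin and 154, 151 and 165 on those labelled control, without overlap, at a log2 fold change of -0.13 (adjusted p = 0.538 from limma). XAGE1E averaged 277 ± 15.8 on the arrays labelled maspin and 304 ± 50.9 on those labelled control, a log2 fold change of -0.12. SSX5 averaged 62.9 ± 7.01 on the arrays labelled maspin and 58.6 ± 4.20 on those labelled control, a log2 fold change of 0.10. SSX3 averaged 12.2 ± 1.61 on the arrays labelled maspin and 11.3 ± 1.64 on those labelled control, also 0.10. SSX1, one of the SSX genes fused to SS18 in synovial sarcoma, read 3.74, 2.65 and 3.06 on the arrays labelled maspin and 5.48, 4.13 and 3.24 on those labelled control, under the minimum.

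Across the 19 tested probes, the groups did not overlap for 3 that were higher (PAGE5, PAGE2 and MAGEA3) and 3 that were lower (SPANXD, XAGE3 and MAGEA9). Each count is 15.8% of the tested members, against 13.7% of all probes tested that were higher and 6.84% that were lower without overlap. The higher share is thus close to that of all probes and includes PAGE2, tested only through its high group, and the lower share is above that of all probes but rests on 3 probes. Of the 16 probes that did not pass, 6 had a positive and 10 a negative log2 fold change, 15 of them under 0.2 in size, and their 95% intervals ran from -0.50 to 0.56.

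**Figure D4:**
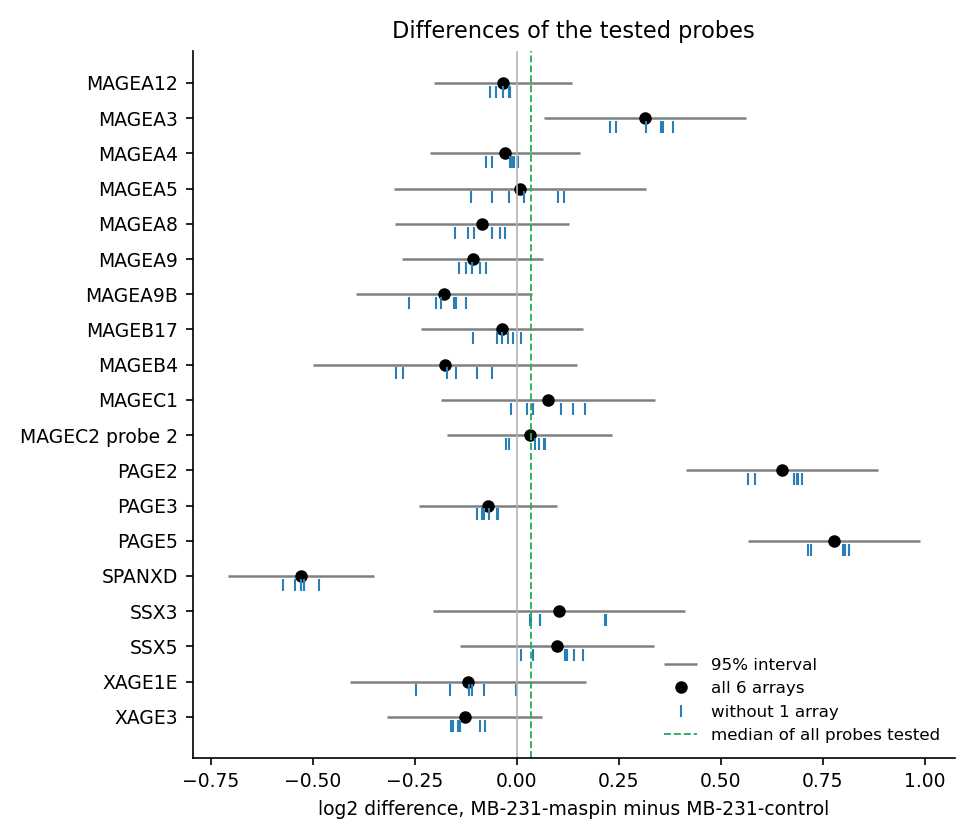
Log2 difference (MB-231-maspin minus MB-231-control) of the 19 tested member probes with 95% intervals; small ticks are the values with 1 array left out, and the dashed line is the median over all probes (0.03). PAGE5, PAGE2 and SPANXD, called from these same differences, lie outside the range of -0.18 to 0.31 that holds the other 16. This adds no result beyond the call, and PAGE2 was tested only through the arrays on which it was high.

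Lists of genes outside these families were also read: other cancer-testis genes, type II MAGE genes, partner and substrate genes, and DNA methylation and chromatin genes. Of 68 other cancer-testis genes, 46 had a probe, 24 probes were tested and 0 passed in limma. At an unadjusted p under 0.05, 6 of the 24 were higher and 2 lower, with a median of 0.13. Over all 14903 probes tested, 1413 were higher and 577 lower at that threshold, with a median of 0.03. The 2 with the smallest p were both probes of TTK, a mitotic kinase of dividing cells, each at a log2 fold change of 0.44 (adjusted p = 0.101 and 0.108). Of the partners and reported substrates of MAGE ubiquitin ligases, 16 probes were tested and 0 passed, with 3 higher and 0 lower at an unadjusted p under 0.05 and a median of 0.11. PRKAA1, the substrate named beside MAGEA3 above, had log2 fold changes of 0.45 (adjusted p = 0.0933) and 0.28 (adjusted p = 0.177) at its 2 probes. The probe with 0.45 read 131, 140.0 and 145 on the arrays labelled maspin, against 90.7, 107 and 106 on those labelled control, without overlap. Of all probes tested, 13.7% were higher without overlap. The arrays read RNA, and PRKAA1 protein was not measured here.

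Of the type II MAGE genes, which are expressed widely outside the testis, 7 probes were tested and 0 passed (median -0.05, 0 higher and 1 lower at an unadjusted p under 0.05). MAGED2 had -0.24 (adjusted p = 0.252) at 1 probe and -0.12 (adjusted p = 0.544) at its other, brighter one. NSMCE3, a subunit of the SMC5/6 complex, had 0.20 (adjusted p = 0.412). Of 8 tested probes for partners of SSX, PAGE and SPANX proteins 0 passed (median 0.11, 1 higher and 0 lower at an unadjusted p under 0.05). CLK2, a splicing kinase, had 0.23 (adjusted p = 0.259). SS18L1 had 0.13 (adjusted p = 0.519) at 1 probe and -0.12 (adjusted p = 0.729) at its other. Of 25 tested probes for DNA methylation and repressive chromatin genes 0 passed (median 0.08, 6 higher and 1 lower at an unadjusted p under 0.05). MBD2, which binds methylated DNA, had 0.36 (adjusted p = 0.157). ATRX, a chromatin remodeller, had 0.42 (adjusted p = 0.306) at 1 probe and 0.14 (adjusted p = 0.509) at its other. All these adjusted p are from limma over the 14903 probes, and the median log2 difference of all probes was 0.03. Of these 14903 probes, 1413 were higher and 577 lower at an unadjusted p under 0.05 in limma.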

How the data were processed

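Total RNA of MB-231-maspin and MB-231-control was measured on 3 arrays each (Toray 3D-Gene, 1 colour, Cy5), grouped by the sample labels. The authors subtracted the background of each array from the spot intensity, scaled the array median to 25 and left blank the probes close to background. The deposited whole-series table gives the same values as whole numbers, a rounded score that differed from the scanner values by less than 0.5, and served as an alternative. From the globally normalized intensities, log2 values were fitted per probe with limma 3.58.1 (lmFit and eBayes, R 4.3.3), two-sided, with Benjamini-Hochberg adjustment. Probes needed a mean above 10 in either group, the methods' minimum, and at least 2 measured arrays per group. Degrees of freedom were 4 residual plus 4.07 from the prior. The array number and the intensity over background limit the precision. The script was tested on simulated data. Tables and plots used Python 3.11.15, pandas 2.3.3 and matplotlib 3.10.9, and alignments Biopython 1.88. Every tested member is named; of each comparison list the probes past the threshold, or the 2 with the smallest p, are named. Members, lists and tests were chosen with earlier results of these data known. The alternatives were the methods' t-test (log2 and linear), a robust intensity trend, array weights, leaving out each array, a replicate block, 1 probe per gene, the rounded table, log2(value + 10), normexp (offset 50), quantile normalization, a mean above 50 and no minimum. No build is named in the files, so array probes have no coordinates here.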

Additional observations from a re-analysis of the deposited data

How the results depend on the processing

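The number of member probes past the adjusted threshold, 3 in the reported comparison, was 0 when the methods' t-test was run, on log2 or linear values, and 1 without the intensity minimum, and ran from 0 to 3 with each array left out. The count over all probes, 126 as reported, was 25 by that t-test on the log2 scale and 24 on the linear scale, 264 with array weights, 48 without the minimum, 49 at a mean above 50 and 286 with normexp and quantile normalization, and ran from 37 to 231 with each array left out (37 without maspin replicate 2, 231 without control replicate 2). At an unadjusted p under 0.05, the methods' t-test on log2 values gave 2 higher and 1 lower of the 19 member probes, PAGE2 among the higher. Of all 14903 probes, it gave 1395 higher and 646 lower. Of 30 member probes with a value on all 6 arrays, 18 lay above the brightest negative control spot. PAGE5 kept its call in 14 of 18 alternatives, SPANXD in 11 of 18 and PAGE2 in 6 of 17, and none of these changed direction. Log2 fold changes near 0 changed sign. The tested MAGEC2 probe gave -0.027 with array weights and -0.027 to 0.068 with each array left out. With each array left out MAGEB17 gave -0.11 to 0.0088, MAGEA4 -0.077 to 0.0025, MAGEC1 -0.015 to 0.17 and MAGEA5 -0.11 to 0.12, and MAGEA5 gave -0.0079 with array weights and -0.0030 with normexp. The cause was not tested. The labels number the arrays of each line. The deviations of arrays of the same number had correlations of -0.34, 0.49 and 0.22, and those of different numbers ran from -0.49 to 0.29. With 3 arrays per line these cannot show whether the numbers pair the arrays, so pairing is not known. With the replicate number as a block, 3 member probes and 78 higher and 61 lower probes in all were called, with adjusted p of 0.00616 for PAGE5, 0.0421 for PAGE2 and 0.0322 for SPANXD. Signal over background limits the 24 probes under the minimum.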
